A study of Mus musculus with 2 samples.

Results

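Alveolar type I (AT1) cells are the thin, spread cells that line most of the gas-exchange surface of the lung. They were examined in single-cell RNA libraries from lungs of female BALB/c mice, 9 to 10 weeks of age, that had been injected intravenously over 3 weeks with medium. The injected medium was control media (CM) in one group and tumor conditioned media (TCM) in the other. TCM was culture medium in which pieces of primary 4T1 tumors, grown from a mouse mammary carcinoma line, had been kept, and CM was the same medium kept without tumor. The labels give no allele or other agent for either group, and each group was 1 library. How many mice were pooled into a library was not given in the sources used here.

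The cells were chosen by a rule on raw counts of unique molecular identifiers (UMIs), each of which stands for 1 captured RNA molecule. A droplet was kept with at least 500 UMIs, at least 200 genes and no more than 10% mitochondrial UMIs. It was called an AT1 cell where the summed UMIs of Ager, Hopx, Rtkn2, Akap5 and Aqp5 reached 5, the summed UMIs of the alveolar type II (AT2) genes Slc34a2, Lamp3 and Cxcl15 were at most 1, and those of Cdh5 (endothelium), Ptprc (leukocytes) and Col1a2 (fibroblasts) were at most 1. This gave 435 AT1 cells among 7988 kept CM cells and 344 among 7707 kept TCM cells, 779 of 15695 in all. Of the AT1 cells 0 barcodes were shared between the libraries, and of all kept cells 93.

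AT1 cells arise from AT2 cells and from embryonic progenitors under the transcription factor Nkx2-1 and the Hippo pathway effectors Yap1 and Wwtr1. They share a fused basement membrane with the capillaries beneath them, and they send the capillaries signals such as Vegfa. They also carry sodium and water channels that help to keep the airspace dry. Surfactant is the product of AT2 cells.

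The libraries held 31944151 (CM) and 36648719 (TCM) UMIs, and the AT1 cells 1421766 and 1134059 of them. An AT1 cell held a median of 1897 UMIs and 1098 genes in CM and of 1542.5 UMIs and 891 genes in TCM, with 1.84% and 2.23% of UMIs from mitochondrial genes. Levels are given as UMIs per 100000 UMIs of the summed AT1 cells (CP100k), and a log2 ratio is TCM over CM. All intervals are 95% and cover counting error only. With 1 library per group, the spread between mice or libraries is unknown and no difference between CM and TCM could be tested.

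The label was checked against the data, and the rule set was mixed. The 5 markers supplied a median of 2.06% (CM) and 2.68% (TCM) of a cell's UMIs, but 54 CM and 41 TCM cells had no UMI of Ager, the receptor that defines AT1 cells in the lung. Of these, 32 and 25 held 3000 UMIs or more, so that low depth was not shared by all of them. All 5 markers were seen in 154 CM and 139 TCM cells, and 1 alone in 37 and 34. Genes of ciliated cells (Foxj1, Ccdc153, Dynlrb2 and Cfap126) summed to 5 or more UMIs in 28 CM and 14 TCM cells, mesothelial genes in 3 and 1, and the heart muscle genes Myl7, Myl4 and Tnnt2 in 0 and 2.

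A stricter set was therefore drawn after the data were seen. Marker-rich cells were AT1 cells by the rule with at least 1 Ager UMI and at least 1% of UMIs from the 5 markers, and they numbered 300 in CM and 228 in TCM (69.0% and 66.3% of the cells, 66.2% and 70.9% of their UMIs). None of them reached 5 UMIs of the ciliated genes, and Foxj1, a ciliated cell regulator, had 0 UMIs in CM and 1 in TCM. They held a median of 1697 (CM) and 1805.5 (TCM) UMIs. The 5 markers supplied a median of 3.00% of their UMIs in CM and 3.77% in TCM. Marker content was thus unequal between the libraries, and its part in the ratios and shares below was not tested. Of 20 further AT1 genes, marker-rich cells showed a median of 13 in CM and 14 in TCM, and the cells that were not marker-rich (135 and 116) a median of 6 and 4. At 3000 UMIs or more, these medians were 19 and 18 over 105 and 90 marker-rich cells, and 7 and 5 over 55 and 37 others. Main results below are given for all AT1 cells by the rule and for the marker-rich ones.

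**Figure D1:**
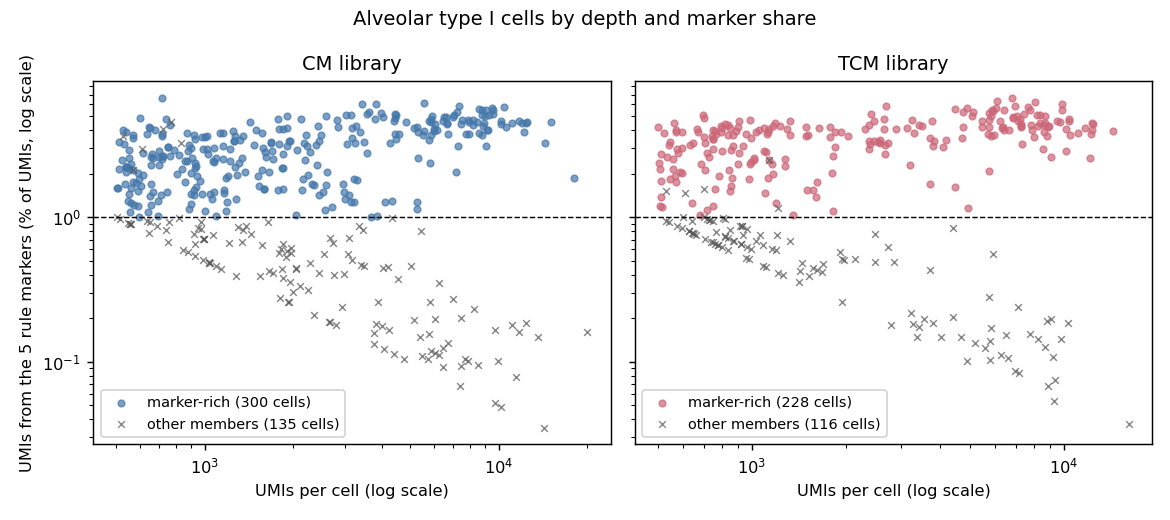
Share of UMIs from the 5 rule markers (%, log scale) against UMIs per cell (log scale), 1 point per AT1 cell by the rule, CM left and TCM right. Filled circles are marker-rich cells (300 and 228), crosses the others (135 and 116), and the dashed line stands at 1%, the limit by which they were separated. The shallowest cells hold 502 UMIs in CM and 501 in TCM.

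At the edge of the rule, 33 CM and 30 TCM cells had a marker sum of exactly 5, of which 22 and 21 had an Ager UMI. Just outside it, 29 and 38 cells had a sum of 4, of which 6 and 16 had an Ager UMI. Of all kept cells with 5 or more marker UMIs, 1402 in CM and 1392 in TCM, the limit on endothelial, leukocyte and fibroblast UMIs alone left out 583 and 628, the limit on AT2 UMIs alone 232 and 284, and both together 152 and 136.

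Among kept cells, AT1 cells had a share of 5.45% in CM (4.96 to 5.97%) and of 4.46% in TCM (4.01 to 4.95%), a TCM to CM ratio of 0.82 (0.71 to 0.946). The marker-rich cells showed the same order, with 3.76% (3.35 to 4.20%) and 2.96% (2.59 to 3.36%). Without any limit on UMIs of other cell types, marker-rich cells numbered 530 (6.63%, 6.10 to 7.20%) and 355 (4.61%, 4.15 to 5.10%). With at least 3 marker UMIs in place of 5, the ratio was 0.941 (0.828 to 1.07), so that the lower share in TCM was no longer beyond counting error. It is a share of droplets, so fewer AT1 cells, more cells of other types and a different yield from tissue dissociation cannot be told apart. S100a8, a neutrophil gene, had a log2 ratio of 3.12 in all other kept cells, and its part in the lower share was not tested.

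The markers used to choose the cells are given as a description. Ager stood at 1037 CP100k in CM and 1229 in TCM, and Hopx, a homeodomain protein of AT1 cells, at 1209 and 1392. Aqp5, a water channel, stood at 191 and 209, Rtkn2 at 85.5 and 91.1, and Akap5, a kinase anchor, at 79.8 and 79.7. In marker-rich cells their log2 ratios lay between −0.09 (Akap5) and 0.15 (Ager).

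Of 20 further AT1 genes that the rule did not use, 15 had a log2 ratio above 0 among all AT1 cells, against 45.1% of the 9923 genes with at least 20 UMIs. Their median was 0.14 (median bounds −0.02 to 0.27), beside −0.04 over all those genes. Median bounds are the medians of the lower and of the upper limits of a list's genes. They are no interval of the median itself. In marker-rich cells 14 of 20 were above 0, against 49.5% of 7902 genes, with a median of 0.06 (−0.06 to 0.22) beside −0.01.

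Within it, genes went both ways. Emp2, a tetraspan membrane protein and the most abundant of the 20, stood at 402 CP100k in CM and 446 in TCM (log2 ratio 0.15, 0.10 to 0.20), and at 0.05 (−0.00 to 0.11) in marker-rich cells. Cyp2b10, a cytochrome P450, had the largest positive ratio, with 100.1 CP100k in CM and 135 in TCM (0.43, 0.32 to 0.53, with 0.42, 0.31 to 0.53 in marker-rich cells). After each marker-rich cell was thinned to 1000 UMIs, a Cyp2b10 UMI was found in 61.6% (54.5 to 68.3%) in CM and in 78.0% (70.5 to 84.4%) in TCM. Leukocytes, which should lack it, gave 0.118% and 0.273%. Spock2, a matrix proteoglycan, stood at 48.0 and 62.2 CP100k (0.37, 0.22 to 0.53, with 0.29, 0.14 to 0.45 in marker-rich cells), and Gramd2 at 16.0 and 21.2 (0.41, 0.14 to 0.67, with 0.39, 0.11 to 0.67 in marker-rich cells). On the other side, Pdpn, the podoplanin of the apical membrane, stood at 51.9 and 45.8 (−0.18, −0.35 to −0.02, with −0.26, −0.43 to −0.09 in marker-rich cells). Igfbp2, which marks terminally differentiated AT1 cells, stood at 84.3 and 77.7 (−0.12, −0.25 to 0.01), and its interval excluded 0 in the marker-rich cells alone (−0.21, −0.34 to −0.08).

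**Figure D2:**
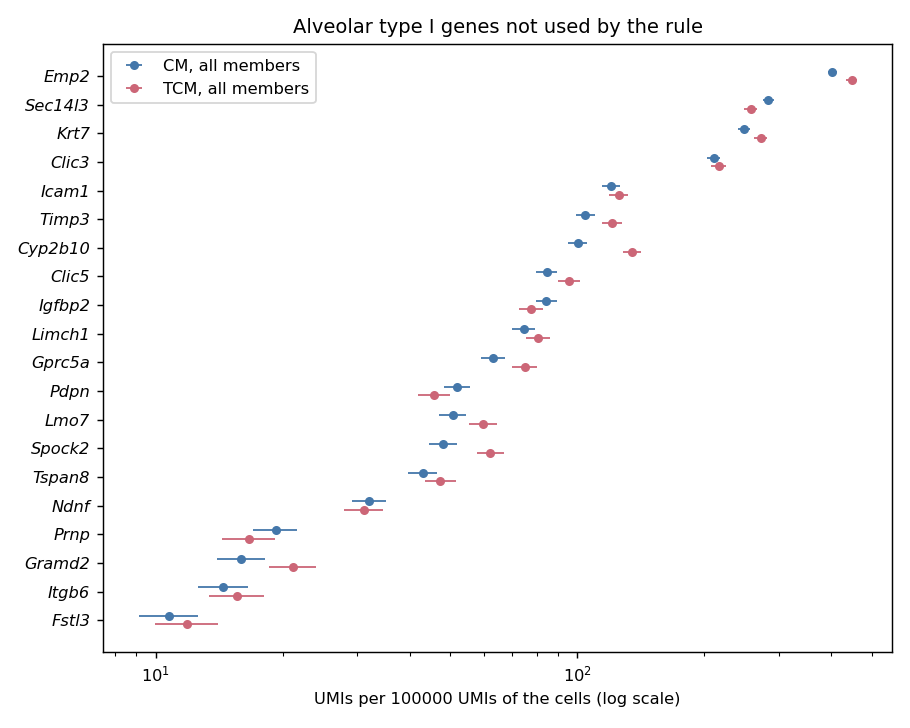
Levels of the 20 AT1 genes not used by the rule, in UMIs per 100000 UMIs (log scale), summed over all AT1 cells of CM (435 cells) and TCM (344 cells). Bars are exact 95% Poisson intervals and cover counting error only. The levels of CM and TCM lie close together for most genes, with Cyp2b10, Spock2 and Gramd2 higher in TCM and Pdpn lower.

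The regulators of this program varied around 0. Over 16 genes of alveolar transcription factors and the Hippo pathway the median log2 ratio was −0.05, and over the 15 with enough UMIs in marker-rich cells 0.06. Nkx2-1 stood at 24.9 CP100k in CM and 21.3 in TCM (−0.23, −0.47 to 0.01, with −0.28, −0.54 to −0.02 in marker-rich cells). Tead1, the DNA-binding partner of Yap1, stood at 19.9 and 24.5 (0.30, 0.06 to 0.54, with 0.26, 0.01 to 0.52 in marker-rich cells). Ccn1, a matricellular protein and Hippo pathway target, stood at 62.9 and 74.3 (0.24, 0.10 to 0.38), and the ratio was larger in marker-rich cells (0.61, 0.46 to 0.76). Ccn2, a related target, gave 0.22 (−0.10 to 0.54).

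Basement membrane genes were higher in TCM, nearly without exception. Type IV collagens, laminins, perlecan and agrin form the sheet on which AT1 cells sit. Of 15 such genes with at least 20 UMIs, 14 were above 0 in all AT1 cells and 14 lay above the upper quartile of all genes (log2 0.19), where 25% of the 9923 genes lay. Of 14 in marker-rich cells, 13 were above 0 and 13 above the upper quartile (0.23), against 23.4% of 7902 genes. The median log2 ratio was 0.40 in both sets of cells (median bounds 0.18 to 0.76 and 0.17 to 0.73). In all other kept cells the median over 17 genes was 0.16, and in AT2 cells, picked as described with the lipid genes below, it was 0.48 over 14 genes (−0.17 to 1.08), of which 12 were above 0. The higher level was not shown to be particular to AT1 cells.

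The largest ratio over all AT1 cells belonged to Hspg2, which encodes perlecan, a heparan sulfate proteoglycan. It stood at 16.4 CP100k in CM (233 UMIs) and 27.4 in TCM (311 UMIs), a log2 ratio of 0.74 (0.49 to 0.99), with 0.73 (0.47 to 0.99) in marker-rich cells and 0.23 (0.11 to 0.36) in all other kept cells. Its UMIs were spread over 118 CM and 119 TCM cells, and the 3 highest cells held 8.15% and 9.97% of them. Agrn, encoding agrin, stood at 12.7 and 18.3 (0.53, 0.23 to 0.82, with 0.52, 0.22 to 0.83 in marker-rich cells).

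All 5 type IV collagen chains with enough UMIs were higher in TCM. Col4a1 stood at 23.1 and 32.9 CP100k (0.51, 0.29 to 0.73) and Col4a2 at 31.0 and 40.5 (0.39, 0.20 to 0.58), chains that most basement membranes hold. Col4a1 and Col4a2 gave 0.55 and 0.41 in all other kept cells, so the same size was seen there. In marker-rich cells Col4a1 gave 0.54 (0.30 to 0.78) and Col4a2 0.38 (0.18 to 0.58). The pair Col4a3 and Col4a4, whose chains join in the specialised membranes of alveolus and glomerulus, had 523 and 567 UMIs (0.44, 0.27 to 0.62, with 0.35, 0.18 to 0.53 in marker-rich cells) and 538 and 550 UMIs (0.36, 0.18 to 0.53, with 0.25, 0.08 to 0.43 in marker-rich cells). In all other kept cells Col4a3 gave −0.29 (−0.47 to −0.12) and Col4a4 −0.05 (−0.22 to 0.12), while AT2 cells gave 0.99 and 1.33. The AT2 set held 967 (CM) and 1322 (TCM) UMIs over the whole basement membrane list. It also held club cell genes at 14260 and 9352 CP100k, and the 5 AT1 markers of the rule at 124 and 154. Differences between cell types were not tested. Col4a5 gave 0.39 (0.01 to 0.76, with 0.30, −0.08 to 0.69 in marker-rich cells), and Col4a6 had too few UMIs (8 and 5).

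The laminin chains followed. Lama3 and Lamb3, chains of a laminin that anchors epithelia, gave 0.41 (0.20 to 0.63) and 0.37 (0.02 to 0.72). In marker-rich cells Lama3 gave 0.39 (0.16 to 0.61), while the interval of Lamb3 included 0 (0.30, −0.05 to 0.66). Lamb2 gave 0.40 (0.02 to 0.78, with 0.42, 0.02 to 0.83 in marker-rich cells). Lama5, Lamc1 and Nid1 (nidogen) had few UMIs, and their intervals included 0 in all AT1 cells (0.38, −0.19 to 0.95, then 0.40, −0.08 to 0.89, and 0.33, −0.67 to 1.32). In marker-rich cells Lama5 gave 0.90 (0.17 to 1.65), from 27 and 43 UMIs. Nid2 had 0 UMIs in CM and 2 in TCM. The exception was Npnt, encoding nephronectin, a ligand of integrin alpha 8, at 38.5 and 33.6 CP100k (−0.20, −0.39 to −0.00, with −0.21, −0.41 to −0.00 in marker-rich cells). In marker-rich cells thinned to 1000 UMIs, its mean was 0.443 UMIs in CM and 0.453 in TCM, so it was not lower at equal depth.

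At equal depth, though not at equal marker content, Col4a3 was seen in a larger share of TCM cells. After thinning to 1000 UMIs, a Col4a3 UMI was found in 63 of 203 CM marker-rich cells (31.0%, 24.7 to 37.9%) and in 80 of 150 TCM ones (53.3%, 45.0 to 61.5%). For Hspg2 the shares were 23.6% (18.0 to 30.1%) and 27.3% (20.4 to 35.2%), with overlapping intervals. Without thinning the shares were 46.0% and 61.4% for Col4a3, and 105 of 300 and 114 of 228 cells for Hspg2. Leukocytes gave 0% and 0.455% for Col4a3 after thinning, and 0.235% and 0.091% for Hspg2, at median depths of 2440 (CM) and 1946 (TCM) UMIs before thinning. The count of 0 among 850 CM leukocytes allows a share of up to 0.353%. Thinning left out 97 CM and 78 TCM marker-rich cells of fewer UMIs. The free RNA estimated from empty droplets was 1.19 Hspg2 and 2.10 Col4a3 UMIs over all CM AT1 cells and 2.58 of each over the TCM ones.

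**Figure D3:**
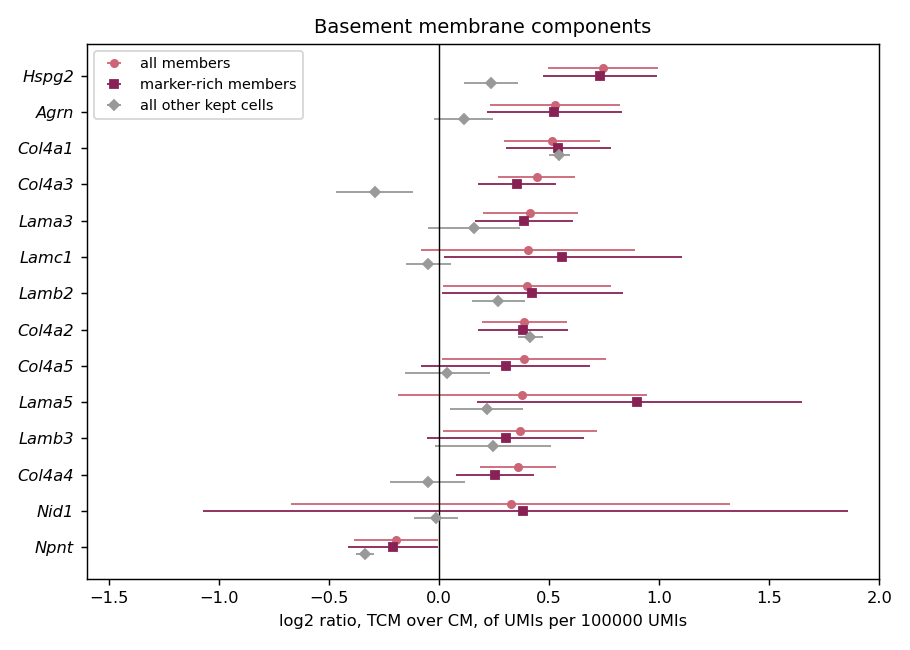
Log2 ratio, TCM over CM, of 14 basement membrane genes in all AT1 cells by the rule (circles), marker-rich cells (squares) and all other kept cells (diamonds), with 95% counting intervals. All genes but Npnt lie to the right of 0 in AT1 cells, with Hspg2 farthest over all AT1 cells at 0.74 and Lama5 farthest in marker-rich cells at 0.90 with a wide interval, and Col4a3 lies left of 0 in the other cells.

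P3h2, a prolyl 3-hydroxylase known to act on type IV collagen, was among the genes named by size. It stood at 2.53 CP100k in CM (36 UMIs) and 5.11 in TCM (58 UMIs), a log2 ratio of 1.01 (0.39 to 1.66, with 1.06, 0.41 to 1.73 in marker-rich cells). In all other kept cells it gave −0.27.

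The collagen pairs lie head to head in the genome (build GRCm38), so their promoter DNA is shown. Col4a3 (chromosome 1, 82586921 to 82722059, plus strand) and Col4a4 (chromosome 1, 82448423 to 82586849, minus strand) are transcribed away from each other, with 71 bases between their annotated starts. Col4a1 starts at 11312826 on the minus strand of chromosome 8 and Col4a2 at 11312805 on the plus strand, so these genes overlap at their starts and leave no such stretch. The stretch between Col4a4 and Col4a3 is given on the strand of Col4a3 (chr1:82586850-82586920), beside 120 bases just upstream of Hspg2 (chr4:137468649-137468768, plus strand) and Agrn (chr4:156197489-156197608, minus strand), from RefSeq promoter windows of GRCm38.p6. Capitals mark GC boxes (GGGCGG on either strand), a motif added after the data were seen.
Col4a4 to Col4a3: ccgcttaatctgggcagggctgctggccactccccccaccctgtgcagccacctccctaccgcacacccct
Hspg2: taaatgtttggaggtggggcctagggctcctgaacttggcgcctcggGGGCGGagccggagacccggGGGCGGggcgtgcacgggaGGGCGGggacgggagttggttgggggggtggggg
Agrn: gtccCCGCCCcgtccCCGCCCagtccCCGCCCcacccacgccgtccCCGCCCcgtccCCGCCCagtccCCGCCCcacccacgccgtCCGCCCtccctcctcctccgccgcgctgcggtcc

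GC boxes occurred 3 times in the Hspg2 stretch, 7 times in that of Agrn and 0 times between Col4a4 and Col4a3. Windows were at hand for 12 of the 17 basement membrane genes, and 9 of the 12 held a GC box, beside 38.2% of 27025 genes. The interferon element GAAANNGA was in 3 of the 12 (23.4% of all genes), the glucocorticoid element AGAACA in 1 (21.3%), the heat-shock element GAANNTTC in 1 (9.04%), and the E-box CACGTG (8.09%) and the D-box TTATGTAA (1.11%) in 0, on both strands. These are matches of letters in a window of 300 bases, given as a description.

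Some signals from AT1 cells to their neighbours went the other way in summed UMIs. Vegfa, the growth factor that AT1 cells give to capillaries, stood at 124 CP100k in CM (1758 UMIs) and 109 in TCM (1240 UMIs), a log2 ratio of −0.18 (−0.28 to −0.07, with −0.29, −0.40 to −0.18 in marker-rich cells). Pdgfa, a factor for alveolar fibroblasts, gave −0.20 (−0.36 to −0.04, with −0.19, −0.36 to −0.02 in marker-rich cells), and Bmp4 −0.53 (−0.93 to −0.14, with −0.55, −0.99 to −0.12 in marker-rich cells). In marker-rich cells thinned to 1000 UMIs, the mean for Vegfa was 1.77 UMIs in CM and 1.71 in TCM. For Pdgfa it was 0.621 and 0.653. At equal depth, Vegfa was thus nearly level and Pdgfa was not lower in TCM. Bdnf, a neurotrophin, stood at 18.2 and 13.0 (−0.49, −0.79 to −0.19, with −0.56, −0.87 to −0.26 in marker-rich cells). Bdnf gave −0.49 and Bmp4 −0.26 in all other kept cells too. Sema3b (0.33, 0.06 to 0.59) and Tgfb2 (0.42, −0.01 to 0.84, with 0.48, 0.05 to 0.92 in marker-rich cells) were on the higher side. Over the 12 signal genes with enough UMIs 7 were above 0 in each set of cells, with medians of 0.13 and 0.05, so the list as a whole had no common direction.

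Genes of the barrier differed less. Among 7 transport genes with enough UMIs, the epithelial sodium channel chains Scnn1a (0.22, 0.07 to 0.36) and Scnn1g (0.35, 0.13 to 0.57) were higher in TCM, with 0.20 and 0.25 in marker-rich cells, and Scnn1b gave 0.06 (−0.17 to 0.28). Atp1b1, a chain of the sodium pump, gave 0.06 (−0.22 to 0.34). Caveolae, the membrane pits that crowd AT1 cells, had a median of −0.10 over 6 genes, of which 5 were below 0. The 1 above 0 was Cav1, at 145 and 159 CP100k (0.13, 0.04 to 0.22, with 0.09, −0.00 to 0.19 in marker-rich cells). Cldn18, the main claudin of alveolar tight junctions, stood at 349 and 335 (−0.06, −0.12 to 0.00), and its interval excluded 0 in marker-rich cells (−0.16, −0.22 to −0.10). Cldn4 and Cldn3 gave −3.17 (45 and 4 UMIs) and −0.68 over all AT1 cells, but 0 of the Cldn4 UMIs in CM and 1 in TCM were in marker-rich cells.

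At the scale of 2-fold, 67 of 6121 genes with at least 60 UMIs were higher in TCM (1.09%) and 92 lower (1.5%) over all AT1 cells. In marker-rich cells 13 of 4383 were higher (0.297%) and 36 lower (0.821%). These counts moved with the choice of cells and are no count of tested genes. Of 5594 genes whose UMIs were spread over enough cells, 30 were named by size or by the difference from all other kept cells, and they are shown in the plot of named genes.

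On the higher side, Epn3, an epsin of endocytosis found in epithelia, stood at 3.10 CP100k in CM (44 UMIs in 41 cells) and 7.50 in TCM (85 UMIs in 61 cells), a log2 ratio of 1.28 (0.73 to 1.84, with 1.16, 0.59 to 1.74 in marker-rich cells). Erbb3, a receptor for neuregulins, stood at 2.11 and 4.76 (1.17, 0.50 to 1.87, with 1.06, 0.35 to 1.79 in marker-rich cells). Notch2 (1.29, 0.50 to 2.12), Rab20 (1.26), Cog2 (1.09), Cecr2 (1.09), Crybg3 (1.07) and Tshz1 (1.05) were also among the 10 highest, with 21 to 31 CM and 39 to 52 TCM UMIs each. Epn3, Erbb3, Cecr2, Cog2 and Tshz1 gave ratios between −0.11 and 0.16 in all other kept cells. In AT2 cells Epn3 (0.60, 0.22 to 0.98) and Cecr2 (26 and 55 UMIs, interval 0.30 to 1.73) were on the higher side too, and the intervals of Erbb3 (0.26), Cog2 (0.21) and Tshz1 (−0.55) included 0. Notch2 gave 0.62 (0.48 to 0.75) in all other kept cells and 0.00 (−0.58 to 0.58) in AT2 cells. Rab20 gave 1.25 in all other kept cells and 0.13 (−0.44 to 0.71) in AT2 cells. Srgn, the proteoglycan of leukocyte granules, and Msrb1 gave 1.22 and 1.06, but 0.11 (−0.33 to 0.55) and 0.31 (−0.13 to 0.75) in marker-rich cells, and 1.68 and 1.37 in all other kept cells.

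Further genes stood apart by their difference from the other cells. Radil, an effector of Rap1 in cell adhesion, stood at 4.50 and 6.88 CP100k (0.61, 0.12 to 1.11), with −0.63 in all other kept cells. Krtap17-1 gave 0.85 (0.39 to 1.32) against −0.35, Zfp579 0.76 (0.09 to 1.45) against −0.49, and Akr1c14 0.26 (−0.25 to 0.77) against −0.94. Stx11 (0.08) and Pygl, the glycogen phosphorylase of liver and leukocytes (−0.21), were near 0 in AT1 cells while the other cells gave 1.90 and 1.34. None of these differences was tested.

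On the lower side, Sema3c, a secreted semaphorin, stood at 10.6 CP100k in CM (151 UMIs in 90 cells) and 3.35 in TCM (38 UMIs in 31 cells), a log2 ratio of −1.66 (−2.22 to −1.14, with −1.79, −2.65 to −1.01 in marker-rich cells). Free RNA was estimated at 13.5 of the 151 Sema3c UMIs in CM and at 30.6 of the 38 in TCM. In TCM marker-rich cells the estimate was 18.2, beside 17 UMIs seen, so the TCM level there is at background. Sema3c gave 0.17 in all other kept cells and −1.11 (−1.67 to −0.58) in AT2 cells. Efnb2, the ligand ephrin B2, gave −1.21 (−1.88 to −0.57, with −1.88, −3.04 to −0.86 in marker-rich cells), Rhoj −1.37 (−2.28 to −0.54) and Itga6 −1.56 (−2.45 to −0.74). In TCM, free RNA was estimated at 13.1 of 28 Efnb2, 6.67 of 16 Rhoj and 7.31 of 16 Itga6 UMIs. In TCM marker-rich cells it was estimated at 7.80 of 10, 3.96 of 6 and 4.35 of 7, so these counts lie near background. Endothelial cells are also known to express these 4 genes, and the endothelial markers moved with them. All 6 (Pecam1, Cldn5, Egfl7, Ramp2, Tie1 and Car4) were below 0, with a median of −0.41, a summed level of 125 CP100k in CM and 94.4 in TCM, and −0.65 in marker-rich cells (74.8 and 50.4). Cdh5 was held at 0 or 1 UMI by the rule. Their part in these ratios was not tested. The other genes of the 10 lowest were Mid1 (−2.04), Cwc27 (−1.29), Rnf138 (−1.23), Kif2a (−1.20), Myh10 (−1.20) and Phlda3 (−1.18). Mid1 gave −1.48 in all other kept cells, and in marker-rich cells the intervals of Mid1 (−0.92, −1.94 to 0.03) and Myh10 (−0.44, −1.41 to 0.49) included 0.

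Cemip2 (−0.74), Xdh (−0.73) and Arrdc4 (−0.96) completed the 30, with 0.77, 0.72 and 0.48 in all other kept cells. Arrdc4 gave −1.77 (−3.03 to −0.65) in AT2 cells. In marker-rich cells Cemip2 gave −0.33 (−1.38 to 0.69) and Arrdc4 −0.01 (−1.32 to 1.26).

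**Figure D4:**
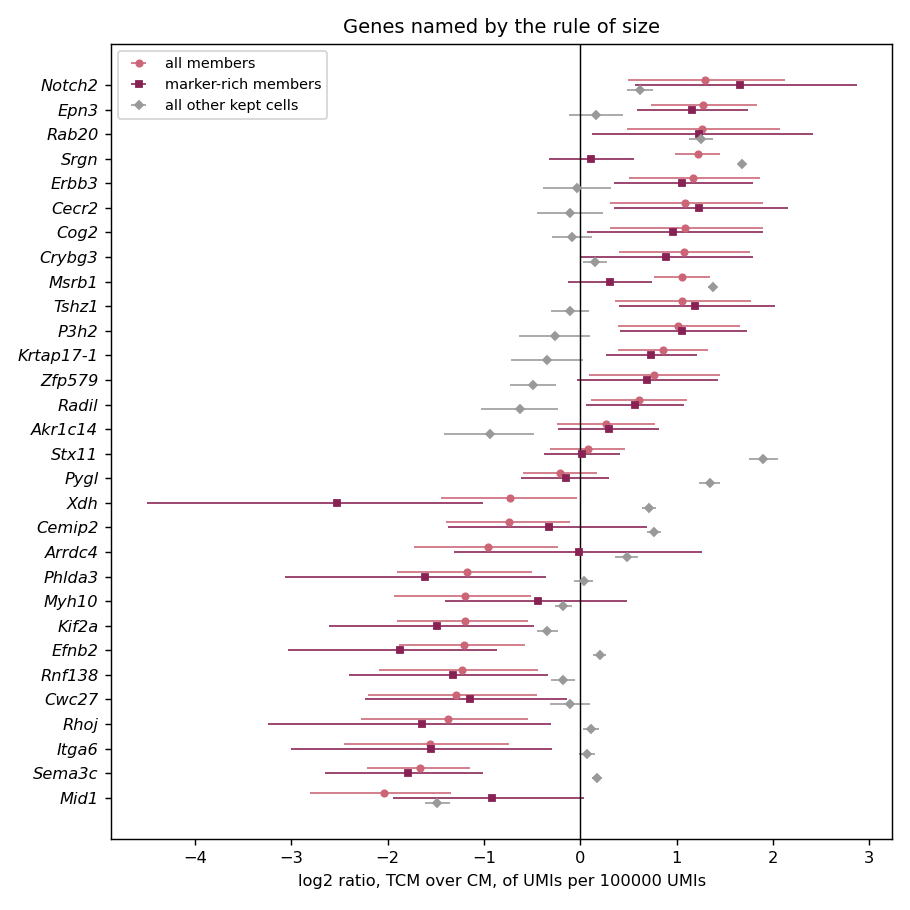
Log2 ratio, TCM over CM, of the 30 genes named by the rule of size, in all AT1 cells (circles), marker-rich cells (squares) and all other kept cells (diamonds), with 95% counting intervals. Epn3, Erbb3, Cecr2, Tshz1 and P3h2 lie near 1 in AT1 cells and near 0 or below in the others, and Sema3c, Itga6, Rhoj and Efnb2 lie below −1 in AT1 cells and near 0 in the others.

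The study looked for lipid and surfactant genes, with AT1 cells as the counterpart of AT2 cells. The 8 genes of its list had a median log2 ratio of 0.01 (median bounds −0.55 to 0.71) over all AT1 cells, with 5 above 0, and of −0.11 over the 6 with enough UMIs in marker-rich cells, with 2 above 0. The study chose this list on these samples. Scd1, Acsl4, Fasn, Acly and Fabp5 had 10 to 47 UMIs per library, too few for a firm value. Scd1, a desaturase of fatty acids, had 16 and 25 UMIs (0.97, 0.01 to 1.97, with 0.52, −0.89 to 1.97 in marker-rich cells). Abca3, the lipid transporter of lamellar bodies, stood at 8.02 CP100k in both libraries (0.00, −0.41 to 0.41).

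Sftpc, the surfactant protein of AT2 cells, stood at 102 CP100k in CM and 164 in TCM (0.69, 0.59 to 0.79), but at 126 and 132 in marker-rich cells (0.07, −0.05 to 0.19). The marker-rich level in CM rested in part on 1 cell, which held 254 of 1183 UMIs. The highest TCM cell held 29 of 1060. The free RNA estimated from empty droplets was 1174 of the 1448 Sftpc UMIs in CM and 1725 of the 1857 in TCM. Thinned to 1000 UMIs, 50.7% of the CM and 67.4% of the TCM AT1 cells held a Sftpc UMI (85.1% and 96.2% unthinned), beside 42.8% and 76.4% of the leukocytes (76.4% and 96.7% unthinned), so the TCM share is at background. Sftpb gave 0.48 (0.09 to 0.87) and, in marker-rich cells, −0.37 (−0.91 to 0.16).

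AT2 cells picked by the mirror of the rule numbered 112 in CM and 26 in TCM. Letting the AT1 markers reach up to 1% of UMIs, a change made after the data were seen, gave 339 and 314. In those the same 8 genes were all above 0, with a median of 0.46 (0.30 to 0.54), and Abca3 and Scd1 gave 0.46 and 0.56. The 10 AT2 markers, among them Sftpb, Sftpc and Abca3, were all above 0 there too, with a median of 0.36. The 3 AT2 genes of the rule had a median of 0.40. The higher lipid genes were thus not shown to be apart from AT2 markers in general. The AT2 set also held club cell genes at 14260 CP100k in CM and 9352 in TCM and ciliated ones at 70.3 and 25.7, its cells had a median of 2845 and 5597 UMIs, and the part of this shift was not tested. The difference from AT1 cells was not tested. Genes of fatty acid and phospholipid metabolism in AT1 cells (15 with enough UMIs) had a median of −0.18 with 3 above 0. Chpt1, which makes phosphatidylcholine, gave −0.43 (−0.72 to −0.15, with −0.44, −0.76 to −0.13 in marker-rich cells). The 11 genes of cholesterol synthesis and transport had a median of −0.15.

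Stress and immune genes depended on which cells were taken. The 14 immediate early genes, which rise within minutes of a stimulus such as tissue dissociation, had a median of −0.54 over all AT1 cells, with 12 below 0, and of −0.23 in marker-rich cells. Fos stood at 96.2 CP100k in CM and 66.7 in TCM (−0.53, −0.66 to −0.40), and gave −0.00 (−0.20 to 0.19) in marker-rich cells. Egr1 (−0.99, −1.23 to −0.76, with −0.56, −0.93 to −0.19 in marker-rich cells) was below 0 in both. Cebpd, a transcription factor of acute responses, stood at 43.3 and 20.7 (−1.06, −1.29 to −0.84, with −0.77, −1.09 to −0.45 in marker-rich cells), with −0.06 in all other kept cells. Of 10 genes of the glucocorticoid response, Tsc22d3 (0.44, 0.24 to 0.64, with 0.57, 0.34 to 0.81 in marker-rich cells) and Sgk1, a kinase that sustains sodium channels (0.37, 0.10 to 0.64, with 0.57, 0.27 to 0.87 in marker-rich cells), were higher in TCM, and the list median was 0.16. Mt1, a metallothionein, gave −0.91 (−1.08 to −0.75), with 1014 and 429 UMIs, of which 78 and 44 were in marker-rich cells.

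The 4 genes of MHC class II lay on opposite sides of 0 in the 2 sets of cells. H2-Aa, H2-Ab1, H2-Eb1 and Cd74 gave 0.71, 0.67, 0.99 and 0.53 over all AT1 cells and between −1.65 and −1.03 in marker-rich cells. The 3 highest TCM cells held 72.9% of the 1024 Cd74 UMIs and 80.0% of the 360 H2-Aa UMIs. In marker-rich cells the 3 highest CM cells held 42.9% of 457 Cd74 UMIs and 45.5% of 66 H2-Eb1 UMIs, and the B cell markers stood at 9.35 CP100k in CM and 0.498 in TCM (88 and 4 UMIs). The TCM values over all AT1 cells thus rested on few cells, and the marker-rich values did so in part. A Cd74 UMI was found in 106 CM and 62 TCM marker-rich cells. The 3 highest TCM ones held 53.5% of 155 Cd74 UMIs. The part of B cell RNA was not tested. Interferon-inducible genes had a median of −0.21 over 19 genes and of −0.43 over 16 in marker-rich cells. Isg15 stood at 12.7 and 12.0 CP100k (−0.09, −0.42 to 0.24, with −1.26, −1.90 to −0.65 in marker-rich cells), and Ifit3 gave 0.50 (0.15 to 0.85, with 0.49, 0.13 to 0.85 in marker-rich cells).

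S100a8, a ligand of the receptor that Ager encodes and an abundant protein of neutrophils, gave 2.18 (1.95 to 2.41), and 1.15 in marker-rich cells. The 5 neutrophil markers moved together, with 45.7 CP100k in CM and 194 in TCM for their sum, and none was at 0. Free RNA was estimated at 33.0 of 203 S100a8 UMIs in CM and at 245 of 733 in TCM, or at 146 (CM) and 270 (TCM) UMIs of all genes per AT1 cell. In marker-rich cells 145 of the 207 TCM UMIs were estimated as free, and the rest of the difference was not tested. Il1b, a cytokine of myeloid cells, gave 2.09 (1.78 to 2.41, with 1.98, 1.35 to 2.64 in marker-rich cells), and 3 cells held 57.4% of its 94 UMIs in TCM marker-rich cells. Cxcl1 had 15 and 45 UMIs, and 3 cells held 80.0% of the 45.

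**Figure D5:**
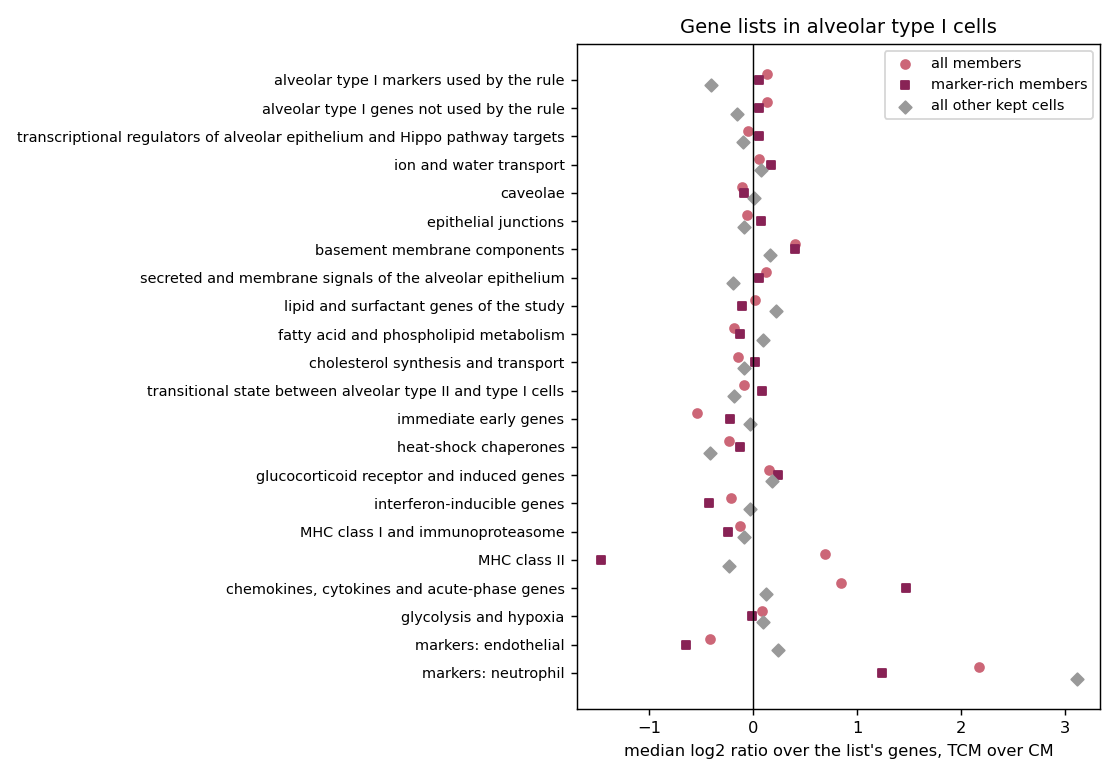
Median log2 ratio, TCM over CM, of 22 gene lists in all AT1 cells (circles), marker-rich cells (squares) and all other kept cells (diamonds). Basement membrane components sit at 0.40 in both sets of AT1 cells, and MHC class II lies at 0.69 in all AT1 cells and at −1.47 in marker-rich ones.

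The remaining lists gave smaller or less even values. Heat-shock chaperones had a median of −0.24 with 10 of 11 below 0 (marker-rich −0.12), beside −0.42 in all other kept cells. Medians were −0.13 for MHC class I, −0.08 for the transitional state between AT2 and AT1 cells, 0.03 for ligands of the Ager receptor, 0.09 for glycolysis and hypoxia, and 0.04 for the circadian clock, and the marker-rich medians of these 5 lists lay between −0.25 and 0.09. Chemokines, cytokines and acute-phase genes gave 0.85 over 8 genes, and matrix genes named for pre-metastatic niches 0.44 over 5 but −0.13 in marker-rich cells.

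Markers of other cell types were present in the rule set. Summed AT2 markers stood at 267 CP100k in CM and 406 in TCM, fibroblast markers at 183 and 144, ciliated ones at 184 and 132, mesothelial ones at 22.9 and 1.94, B cell ones at 12.4 and 6.35, T and natural killer ones at 12.2 and 8.73, macrophage ones at 37.7 and 34.3, and club cell ones at 336 and 407. The erythroid genes held 1772 UMIs in CM and 9 in TCM, and 3 CM cells held 1483 of them. Marker-rich cells were not free of such RNA, since they held 1725 of the CM erythroid UMIs, fibroblast markers at 154 and 128 CP100k, and AT2 markers at 241 and 222. Their part in the ratios above was not tested.

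Cell-to-cell spread at equal depth differed between genes. The rule and the marker-rich choice used Ager and Hopx, so their spread is not given as a result. In marker-rich cells thinned to 1000 UMIs, the variance was 2.03 (CM) and 1.45 (TCM) times the mean for Emp2, and 2.54 and 1.79 times for Cldn18. Col4a3, with a mean of 0.443 UMIs in CM and 1.02 in TCM, had 1.38 and 1.78 times its mean. S100a6, a small calcium-binding protein, had 3.83 and 3.80 times. Counting error alone would give a value of 1. Genes of other cell types had values of 18.4 and 2.37 times for Sftpc and 9.91 and 17.1 times for S100a9. The highest thinned cell held 78 Sftpc UMIs in CM and 11 in TCM.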

How the data were processed

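Lungs were dissociated, and the authors made 1 library per group using the droplet chemistry Single Cell 5′ V1.1 of 10x Genomics and mapped it with Cell Ranger (version 4 per the matrix header) to mm10 (GRCm38.p6). The deposited matrices hold raw UMI counts per gene and barcode, with no normalization. Python 3.11.15, numpy 2.4.6, scipy 1.17.1, pandas 2.3.3 and matplotlib 3.10.9 were used here.

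Groups came from the treatment labels. Counts were summed over the AT1 cells of a library and divided by their total. Ratios carry conditional binomial intervals, levels Poisson and shares Clopper-Pearson ones, all at 95% and for counting error only. UMIs collapse copies of a molecule, and cells vary beyond counting error, so the true error is larger. A list used genes with at least 20 UMIs over both libraries, a count of genes at least 60. A gene at 0 was set to the floor of 3 counts per library.

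Named genes had at least 60 UMIs, a UMI in at least 20 cells of the higher library and at most 50% of its UMIs in 10 cells. They were the 10 highest and 10 lowest ratios and the 8 highest and 8 lowest differences from all other kept cells, without the 11 genes of the rule. Free RNA was estimated from droplets of at most 50 UMIs, scaled by 7 haemoglobin and club cell genes after leaving out the 5% of cells with most of them. For shares, leukocytes (2 or more Ptprc UMIs and none of Cdh5 or Col1a2) gave the background. They could hold at most 1 summed UMI of the rule markers and at most 1 of the AT2 genes of the rule.

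The cells and all 37 lists were chosen with earlier results of these data known. The marker-rich cells, the wider AT2 rule and the GC box were added after the data were seen. No doublet caller was run. The rule limits UMIs of 6 genes of other types only, so doublets may remain, and an alternative left out the 5% deepest cells. Coordinates are from GENCODE vM21 (32235 of 32286 features matched). The functions were tested on simulated data. Cell annotation by the authors was not used here. Some list genes are not reported here by name, and the counts and medians of their lists include them.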

Additional observations from a re-analysis of the deposited data

Results flagged for a closer look

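Xdh, the xanthine oxidoreductase gene, had a log2 ratio of −0.73 (−1.45 to −0.04) in AT1 cells and of 0.44 (0.03 to 0.87) in AT2 cells, and the opposite directions drew attention to it. In marker-rich AT1 cells it gave −2.53 (−4.50 to −1.01), from 27 UMIs in CM and 4 in TCM. Free RNA was estimated at 2.70 UMIs (CM) and 6.78 (TCM) in those cells, so the TCM count there is at background. Over all AT1 cells the estimate was 4.56 of 56 UMIs in CM and 11.4 of 27 in TCM. All other kept cells gave 0.72, the direction of the AT2 cells. The difference between AT1 and AT2 cells was not tested, since each group had 1 library.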

How the results depend on the processing

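With 1 library per group no test could be run and no replicate could be left out. No paired analysis was possible because each group had 1 library. The median of the basement membrane list stayed above 0 under all 14 alternatives, between 0.235 with at least 3 marker UMIs and 0.771 with cells thinned to 1000 UMIs. The median of the 20 AT1 genes turned to −0.105 with 0 UMIs of the 6 genes of other types. That of the study's lipid list ran from −0.462 to 0.412, so its sign depended on the setting. The TCM to CM ratio of shares was 0.82, moving to 0.941 (0.828 to 1.07) with at least 3 marker UMIs, which ends the difference beyond counting error, to 0.682 with at least 1000 UMIs and 0.694 for marker-rich cells with no limit on other types. It lay between 0.753 and 0.818 under the other choices of cells. The counts of genes 2-fold higher and lower, 67 and 92, were the least stable. The higher count was 168 with at least 3 marker UMIs, 15 with at least 10, 13 in marker-rich cells, 43 in those with no limit on other types, 126 as a mean over cells, 16 after thinning, and 135 and 27 with at least 30 and 120 UMIs per gene. The lower count was 50 with at least 10 marker UMIs, 39 with 0 UMIs of other types, 177 with at most 5% mitochondrial UMIs, 51 without the 5% deepest cells, 36 and 41 in the marker-rich sets, 15 after thinning, 160 with free RNA subtracted, and 267 and 33 with at least 30 and 120 UMIs per gene. Fewer UMIs reach the limit after thinning and in smaller sets of cells. The median of MHC class II, 0.69, turned to −0.53 with at least 10 marker UMIs, −1.47 and −0.396 in the marker-rich sets, −0.347 when cells were averaged and −0.319 when they were thinned. Medians also turned, among others, for AT2 markers (−0.232 and −0.487 in the marker-rich sets), and in marker-rich cells with no limit for chemokine and cytokine genes (−0.401, from 0.85), ciliated markers (0.392) and fibroblast markers (0.074, and 0.112 when cells were averaged). Medians past 2-fold turned for erythroid markers (0.021 with at least 3 marker UMIs), mesothelial markers (0.862 with at least 10, 1.64 in marker-rich cells and 0.461 in those with no limit), B cell markers (0.377 with 0 UMIs of other types) and metallothioneins (0.026 in marker-rich cells with no limit). These medians rest on few genes and the causes were not tested. Depth limited the lipid enzymes, with 10 to 47 UMIs per library.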
